A study of Mus musculus with 6 samples.

Results

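The genes described here are the core of the G1 switch of the cell cycle: the 3 D-type cyclins (Ccnd1, Ccnd2, Ccnd3), their kinases Cdk4 and Cdk6, the CDK inhibitors Cdkn1a, Cdkn1b, Cdkn1c and Cdkn2c, and the retinoblastoma gene Rb1. They were chosen by symbol, 10 genes of the 43074 symbols in the table of counts, and all 10 had enough counts to be tested. Expression was measured by RNA sequencing in C2C12, an established mouse myoblast line, labelled wild type, whose cells leave the cell cycle and fuse into multinucleated myotubes when the serum is changed. Day 0 libraries came from untreated cells, grown in medium with 10% fetal bovine serum. For day 4 the medium was switched to one that induces differentiation (5% horse serum), with DMSO as vehicle or with 1 mM 4-phenylbutyric acid (4-PBA) over the 4 days. 4-PBA is used to relieve protein misfolding and also inhibits histone deacetylases. There were 2 libraries per group, 6 in all. Day 0 differs from both day 4 groups in time, medium and vehicle, which cannot be told apart. The question was how myoblast proliferation and differentiation proceed with and without 4-PBA.

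In the G1 phase, a D-type cyclin binds CDK4 or CDK6, and the active kinase phosphorylates the retinoblastoma protein, which then lets go of E2F transcription factors that switch on genes of DNA replication. The CIP/KIP inhibitors p21 (Cdkn1a), p27 (Cdkn1b) and p57 (Cdkn1c) bind cyclin and kinase together, whereas INK4 inhibitors such as p18 (Cdkn2c) bind CDK4 and CDK6 alone and keep the cyclin off. Skeletal muscle differentiation is a textbook case of permanent exit from the cycle, in which p21, cyclin D3 and the retinoblastoma protein are known to accumulate as cyclin D1 is lost.

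Promoter sequence was examined for the members that RefSeq's promoter table (GRCm38.p6) holds: 6 of the 10 genes, with 9 windows of the 250 bases before a transcription start. Ccnd1, Ccnd2, Cdkn1c and Rb1 had no entry. For Cdk4, Cdkn1a and Ccnd3 1 window each is shown, because these are the kinase, inhibitor and cyclin with the highest levels per length after differentiation. Each is written 5′ to 3′ on the plus strand, without bases of the gene's own annotated exons. Capitals mark GGGCGG, the GC box bound by SP1-family factors, and CACGTG, the E-box bound by MYC and MAX, on either strand.
Cdk4, chr10:127063285-127063533: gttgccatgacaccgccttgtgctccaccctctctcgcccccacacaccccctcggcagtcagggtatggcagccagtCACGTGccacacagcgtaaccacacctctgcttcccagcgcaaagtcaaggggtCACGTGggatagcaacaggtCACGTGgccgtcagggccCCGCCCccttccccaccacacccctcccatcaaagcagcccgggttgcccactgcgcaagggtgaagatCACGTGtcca
Cdkn1a, chr17:29093519-29093768: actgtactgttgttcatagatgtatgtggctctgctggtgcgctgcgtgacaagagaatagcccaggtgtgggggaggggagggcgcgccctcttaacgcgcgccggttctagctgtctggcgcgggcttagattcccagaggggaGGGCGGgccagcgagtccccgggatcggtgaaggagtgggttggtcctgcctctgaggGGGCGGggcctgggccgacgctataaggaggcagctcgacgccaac
Ccnd3, chr17:47593217-47593435: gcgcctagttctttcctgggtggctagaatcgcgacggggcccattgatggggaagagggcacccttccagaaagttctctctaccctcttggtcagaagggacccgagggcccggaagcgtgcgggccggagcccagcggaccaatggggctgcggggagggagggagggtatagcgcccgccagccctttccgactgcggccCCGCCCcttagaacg
The Cdk4 window held CACGTG 4 times, at 172, 118, 98 and 11 bases before the start. Among the 32851 windows of the same length in the table, 6.02% held it at least once and 0.0213% (7 windows) held it 4 times or more. Both the Cdkn1a window shown and an upstream Ccnd3 window held 2 GC boxes (16.7% of all windows held 2 or more), and the Ccnd3 window shown held 1. An upstream Cdkn1a window, chr17:29090729-29090978, held no match to any motif named here. All 250 bases of the Cdkn1a window shown lie in exons of AC167363.2, a gene on the opposite strand. The E2F motifs TTTCCCGC and TTTGGCGC, the Egr1 motif GCGGGGGCG and the myogenic E-box CAGCTG matched in none of the 9 windows, on either strand, and were found in 0.895%, 0.417%, 2.57% and 13.0% of all windows. Cdk6 had 1 CACGTG, and 1 window of Cdkn2c had 3 GC boxes (8.47% of all windows had 3 or more). CCAAT was in 1 Ccnd3 window and the Cdkn1b window (33.8% of all), TATAAA in that of Cdk6 (12.4%), and CANNTG, which includes both E-boxes above, in those of Cdk4, Cdk6 and Cdkn1a (66.2%). A match is a match of letters and was not tested for binding.

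Total counts ranged from 47908926 to 74697397 per library, so that 9 of the 10 genes had at least 1994 counts in every library and Cdkn1c had between 6 and 134. Values are given as CPM, counts scaled to a common library size with TMM normalisation. Where genes are compared with each other they are given as CPM per kb of the gene's annotated exons. The 11 skeletal muscle markers were detected: their sum was 1851 to 1874 CPM before differentiation, and after it 8076 to 8305 CPM (DMSO) or 7856 to 7946 CPM (4-PBA). Des, Chrna1 and Cdh15 led the day 0 sum (means of 881, 462 and 293 CPM), whereas Pax7 (0.304) and Ckm (0.955) were low. All but Myf5 were higher on average in both day 4 groups. Myf5 fell from 50.2 CPM to 22.9 CPM with DMSO and 23.8 CPM with 4-PBA. Adipocyte markers were near 0 (all 6 under 1 CPM in every library, Cfd at 0). Endothelial markers summed to at most 2.65 CPM, with 4 of 5 under 1 CPM. Macrophage markers summed to 17.9 to 18.7 CPM at day 0 and 7.08 to 9.13 CPM over the day 4 libraries, with 3 of 5 under 1 CPM, Ptprc among them. Osteoblast markers summed to 79.6 to 81.5 CPM at day 0, 57.8 to 63.7 CPM with DMSO and 53.1 to 55.3 CPM with 4-PBA, nearly all of it Runx2, and 4 of 6 were under 1 CPM. Fibroblast markers summed to 22.6 to 23.3 CPM at day 0, 293.0 to 317 CPM with DMSO and 301 to 328 CPM with 4-PBA, most of the day 4 sum from Dcn, whereas Thy1 was under 1 CPM in every library. The part of these markers in the results below was not tested. In such bulk cultures fewer cells of a type and less RNA per cell cannot be told apart.

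Over 4 days of differentiation all 10 genes changed, 5 up and 5 down with DMSO (background 33.8% up and 32.6% down) and 4 up and 6 down with 4-PBA (background 33.2% up and 32.4% down; edgeR's quasi-likelihood test, Benjamini-Hochberg adjusted p under 0.05). Most genes of the transcriptome changed as well: 66.3% of the 17433 tested genes passed with DMSO and 65.6% with 4-PBA. The median absolute log2 change of the 10 genes was 1.24 with DMSO and 1.16 with 4-PBA, against 0.48 and 0.47 over all tested genes. At least 2-fold changes were called in 5 of 10 genes in each comparison (background 21.9% and 21.2%): Ccnd1 fell, and Ccnd3, Cdkn1a, Cdkn1c and Rb1 rose. Day 0 and day 4 libraries did not overlap for any of the 10 genes (81.9% and 81.8% of all genes). Both comparisons use the same day 0 libraries. The labels do not say whether the 2 libraries of a group came from separate cultures, so p-values measure the spread between libraries, which may be technical.

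**Figure D1:**
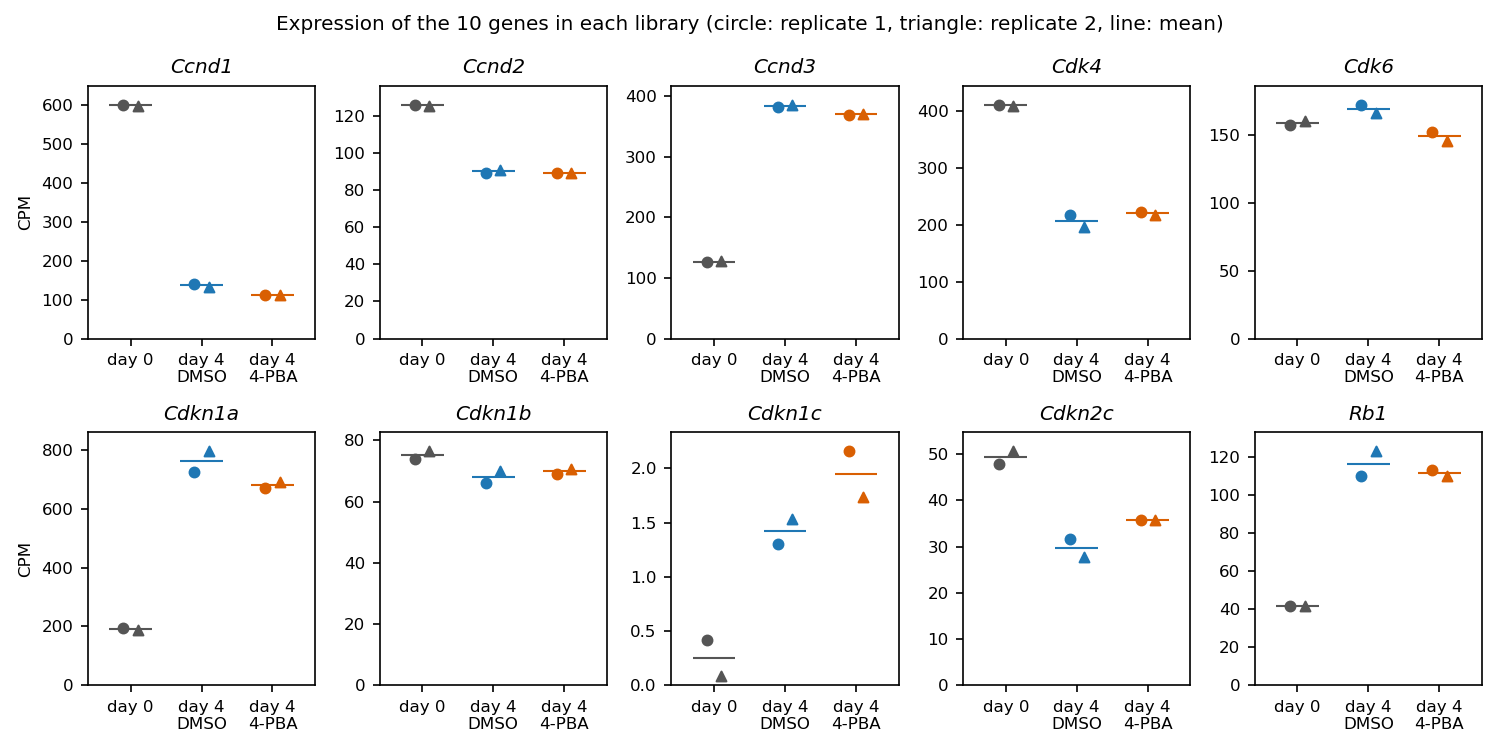
Normalised expression (CPM, linear axes from 0) of the 10 genes in each library at day 0, day 4 with DMSO and day 4 with 4-PBA; circles and triangles are replicates 1 and 2 and lines are group means. Ccnd1 drops from about 599 CPM to 136 and 112 CPM, while Ccnd3, Cdkn1a, Cdkn1c and Rb1 stand higher in all 4 day 4 libraries than at day 0.

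The D-type cyclins moved in opposite directions. Ccnd1, the cyclin induced by growth factors, stood at 601 and 597 CPM at day 0, 141 and 132 CPM with DMSO, against 111 and 112 CPM with 4-PBA. The 3 groups did not overlap, and day 0 was several times higher than either day 4 group. The fall with DMSO was 4.39-fold (log2 change -2.13, SE 0.033, edgeR adjusted p = 4.69e-34), and with 4-PBA it was 5.37-fold (log2 change -2.42, SE 0.033, edgeR adjusted p = 1.64e-35). An opposite-strand gene, LTO1, covers 23.4% of the exon bases of Ccnd1, but with 678 to 1314 counts per library against 6879 to 41945 for Ccnd1. Whether strand was used in counting is not given in the sources used here.

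Ccnd2, a D-type cyclin of many proliferating cells, stood at 126 and 125 CPM at day 0. It was at 89.1 and 91.0 CPM with DMSO, against 89.1 and 89.0 CPM with 4-PBA. Both day 4 groups were lower than day 0 and lay close together. The log2 change was -0.48 with DMSO (SE 0.037, edgeR adjusted p = 6.67e-14) and -0.50 with 4-PBA (SE 0.037, edgeR adjusted p = 3.21e-14).

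Ccnd3, the D-type cyclin that muscle cells keep after they leave the cycle, went the other way. Its level was 126 and 127 CPM at day 0, 381 and 386 CPM with DMSO, against 369 and 371 CPM with 4-PBA. All 4 day 4 libraries stood well above day 0. The rise was 3.03-fold with DMSO (log2 change 1.60, SE 0.031, edgeR adjusted p = 3.17e-31) and 2.92-fold with 4-PBA (log2 change 1.55, SE 0.031, edgeR adjusted p = 9.28e-31). Bysl, on the opposite strand, covers 4.11% of its exon bases.

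Of the kinases, Cdk4 fell and Cdk6 hardly moved. Cdk4 stood at 412 and 410 CPM at day 0, 217 and 196 CPM with DMSO, against 222 and 218 CPM with 4-PBA. All 4 day 4 libraries stood well below day 0, and the DMSO libraries were further apart than the others. The fall was 1.99-fold with DMSO (log2 change -0.99, SE 0.036, edgeR adjusted p = 1.10e-19) and 1.87-fold with 4-PBA (log2 change -0.90, SE 0.036, edgeR adjusted p = 1.10e-18). Tspan31 lies opposite 19.7% of the Cdk4 exon bases and had 5067 to 7506 counts per library, against 13519 to 28758 for Cdk4.

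Cdk6, the other kinase of the D-type cyclins, stood at 158 and 160 CPM at day 0, 173 and 167 CPM with DMSO, against 152 and 146 CPM with 4-PBA. The DMSO libraries were slightly above day 0 and the 4-PBA libraries slightly below. Each step was small: the log2 change was 0.092 with DMSO (SE 0.034, edgeR adjusted p = 0.0179) and -0.092 with 4-PBA (SE 0.034, edgeR adjusted p = 0.0182). Neither call was firm, since 4 of 14 alternative analyses lost the first and 2 of 14 lost the second. With DMSO it missed without day 0 replicate 1 (0.077, edgeR adjusted p = 0.147), without DMSO replicate 1 (0.068, edgeR adjusted p = 0.0994), with library size as the only scaling and with DESeq2. With 4-PBA it missed if day 0 replicate 2 (-0.078, edgeR adjusted p = 0.149) or 4-PBA replicate 2 (-0.062, edgeR adjusted p = 0.253) was left out.

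Among the inhibitors, Cdkn1a and Cdkn1c rose while Cdkn1b and Cdkn2c fell. Cdkn1a encodes p21, a target of p53 and of MyoD. It stood at 195 and 187 CPM at day 0, 728 and 797 CPM with DMSO, against 672 and 693 CPM with 4-PBA. No library of a day 4 group came near day 0, and both 4-PBA libraries lay below both DMSO libraries. The rise was 3.98-fold with DMSO (log2 change 1.99, SE 0.038, edgeR adjusted p = 8.75e-22) and 3.56-fold with 4-PBA (log2 change 1.83, SE 0.037, edgeR adjusted p = 4.15e-21).

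Cdkn1b encodes p27, an inhibitor known to be set mostly by protein degradation. It stood at 74.0 and 76.5 CPM at day 0, 66.2 and 69.9 CPM with DMSO, against 69.1 and 70.7 CPM with 4-PBA. The day 4 groups overlapped each other just below day 0. The log2 change was -0.14 with DMSO (SE 0.043, edgeR adjusted p = 0.00361) and -0.11 with 4-PBA (SE 0.043, edgeR adjusted p = 0.0313). Without day 0 replicate 2 these became -0.12 (edgeR adjusted p = 0.0759) and -0.077 (edgeR adjusted p = 0.249), neither past the threshold. The call with 4-PBA was also lost when 4-PBA replicate 1 (-0.084, edgeR adjusted p = 0.205) or 4-PBA replicate 2 (-0.12, edgeR adjusted p = 0.0626) was left out, and with a stricter filter.

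Cdkn1c, the imprinted gene of p57, was barely expressed. It had 20 and 6 counts at day 0, 82 and 114 counts with DMSO, and 134 and 108 counts with 4-PBA, or 0.412 and 0.0855 CPM, 1.30 and 1.54 CPM, and 2.16 and 1.74 CPM. Day 4 was above day 0 in all libraries, but the day 0 libraries differed several-fold. The log2 change was 2.65 with DMSO (SE 0.40, edgeR adjusted p = 2.01e-06) and 3.11 with 4-PBA (SE 0.39, edgeR adjusted p = 1.18e-07). The size depends on day 0: with DMSO it was 1.79 without day 0 replicate 2 and 4.02 without day 0 replicate 1, and with 4-PBA it was 2.24 and 4.48. The antisense gene Gm44732 covers 30.7% of the Cdkn1c exon bases and had at most 4 counts in any library.

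Cdkn2c, the gene of p18, stood at 47.9 and 50.6 CPM at day 0, 31.6 and 27.8 CPM with DMSO, against 35.8 and 35.7 CPM with 4-PBA. The 3 groups were apart, with 4-PBA between DMSO and day 0. The log2 change was -0.73 with DMSO (SE 0.057, edgeR adjusted p = 1.81e-13) and -0.47 with 4-PBA (SE 0.057, edgeR adjusted p = 7.94e-09). An INK4 inhibitor thus fell over the same days in which a CIP/KIP inhibitor rose several-fold.

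Rb1, whose protein is the main target of the cyclin D kinases, stood at 41.6 and 41.5 CPM at day 0, 110 and 123 CPM with DMSO, against 113 and 110 CPM with 4-PBA. Every day 4 library was well above day 0, and the day 4 groups overlapped. The rise was 2.80-fold with DMSO (log2 change 1.49, SE 0.046, edgeR adjusted p = 2.48e-23) and 2.68-fold with 4-PBA (log2 change 1.42, SE 0.046, edgeR adjusted p = 9.47e-23). Rcbtb2 and Lpar6, on the opposite strand, cover 8.11% and 6.78% of its exon bases.

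**Figure D2:**
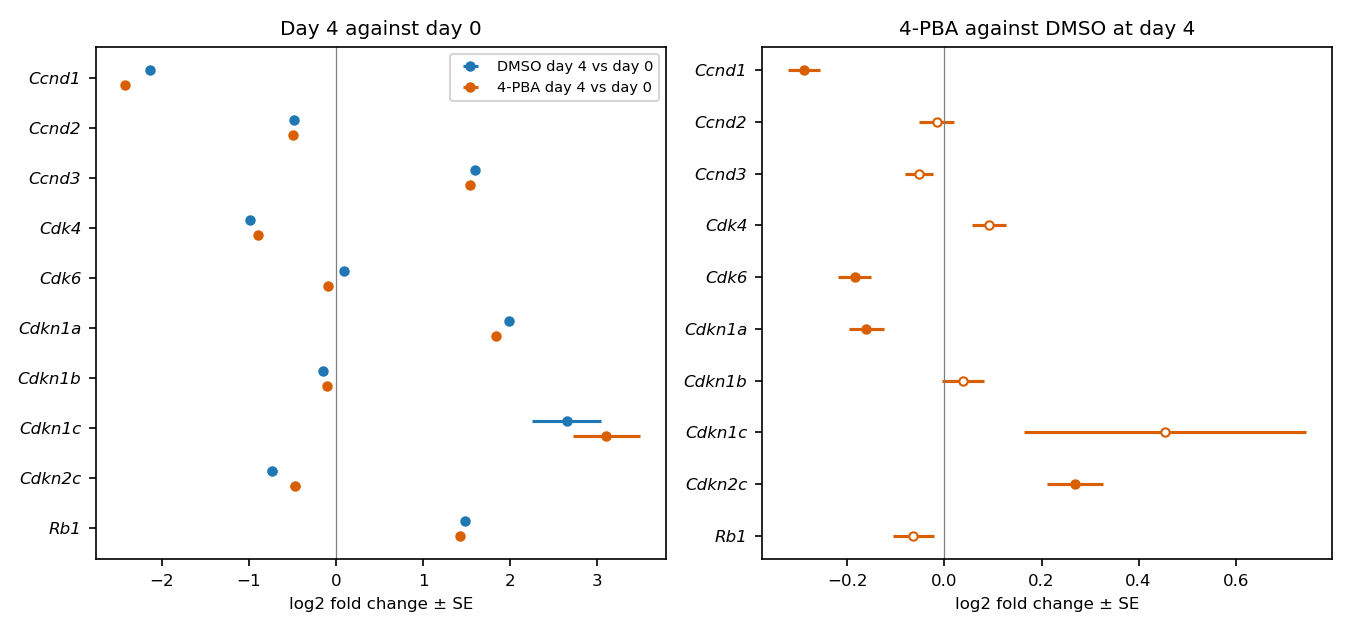
Log2 fold changes with standard errors for the 10 genes, day 4 against day 0 on the left (DMSO blue, 4-PBA orange) and 4-PBA against DMSO at day 4 on the right, on different scales; filled points passed an edgeR adjusted p under 0.05. Changes against day 0 reach from -2.42 to 3.11, whereas between the treatments 4 points are filled and none exceeds 0.46 in size.

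Per length of exon, the order of the genes was rebuilt. At day 0 Ccnd1 (127 CPM per kb) and Cdk4 (126 CPM per kb) led, followed by Cdkn1a (53.9 CPM per kb), and the other 7 genes were at 18.4 CPM per kb or less, down to Rb1 at 6.91 and Cdkn1c at 0.122 CPM per kb. With DMSO Cdkn1a led at 215 CPM per kb, ahead of Cdk4 (63.6), Ccnd3 (43.7), Ccnd1 (29.0) and Rb1 (19.3). With 4-PBA the same 5 genes led in that order, at 192, 67.7, 42.1, 23.7 and 18.5 CPM per kb, and below them Cdkn2c (13.3) and Cdk6 (10.7) stood the other way round than with DMSO (11.1 and 12.1). Ccnd2 and Cdkn1c closed the order in both day 4 groups. No 2 neighbours in the order overlapped between libraries in any group, although Ccnd1 and Cdk4 at day 0 differed by less than 1 CPM per kb. The order depends on the length used: per kb of the longest transcript, Cdk4 (200.02) stood above Ccnd1 (160.2) at day 0 and Ccnd3 (99.4) came close to Cdk4 (100.6) with DMSO. The first 6 genes with DMSO and with 4-PBA came in the same order by either length, and Ccnd2 stood 1 place higher in both groups by the longest transcript.

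The family of D-type cyclins passed from Ccnd1 to Ccnd3 at the level of RNA. Ccnd1 made up 82.1% ± 0.0774 (SD, n = 2) of the summed CPM per kb of the 3 cyclins at day 0, 35.2% ± 1.19 with DMSO and 31.5% ± 0.147 with 4-PBA. Ccnd3 made up 9.31% ± 0.0885 at day 0, 53.1% ± 0.917 with DMSO and 56.0% ± 0.0676 with 4-PBA. Ccnd2 kept the smaller part at day 4, with 11.6% and 12.6%. The sum of the 3 cyclins was 155 CPM per kb at day 0, 82.3 with DMSO and 75.3 with 4-PBA, so that it fell less than Ccnd1 alone.

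Among the 4 inhibitors of the set, which leaves out Cdkn2d, RNA became mostly Cdkn1a. Its share of the 4 inhibitors was 60.6% ± 1.38 (SD, n = 2) at day 0, 88.9% ± 0.759 with DMSO and 86.6% ± 0.219 with 4-PBA. Cdkn2c went from 20.6% to 4.602% and 6.01%, and Cdkn1b from 18.6% to 6.20% and 6.93%. Cdkn1c stayed under 1% throughout. The summed inhibitors stood at 88.9 CPM per kb at day 0, 241 with DMSO and 222 with 4-PBA, while the summed kinases stood at 138, 75.7 and 78.4 CPM per kb. Cdk4 held 91.7% of the kinase sum at day 0, 84.0% with DMSO and 86.4% with 4-PBA. With no length these were 72.1%, 54.9% and 59.6%, and Cdk6 held 45.1% instead of 16.0% with DMSO. The shares are descriptions of RNA per exon length and carry no test. They depend on which length is used, and each cyclin, kinase or inhibitor that led its family kept the lead with the longest transcript or with no length.

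**Figure D3:**
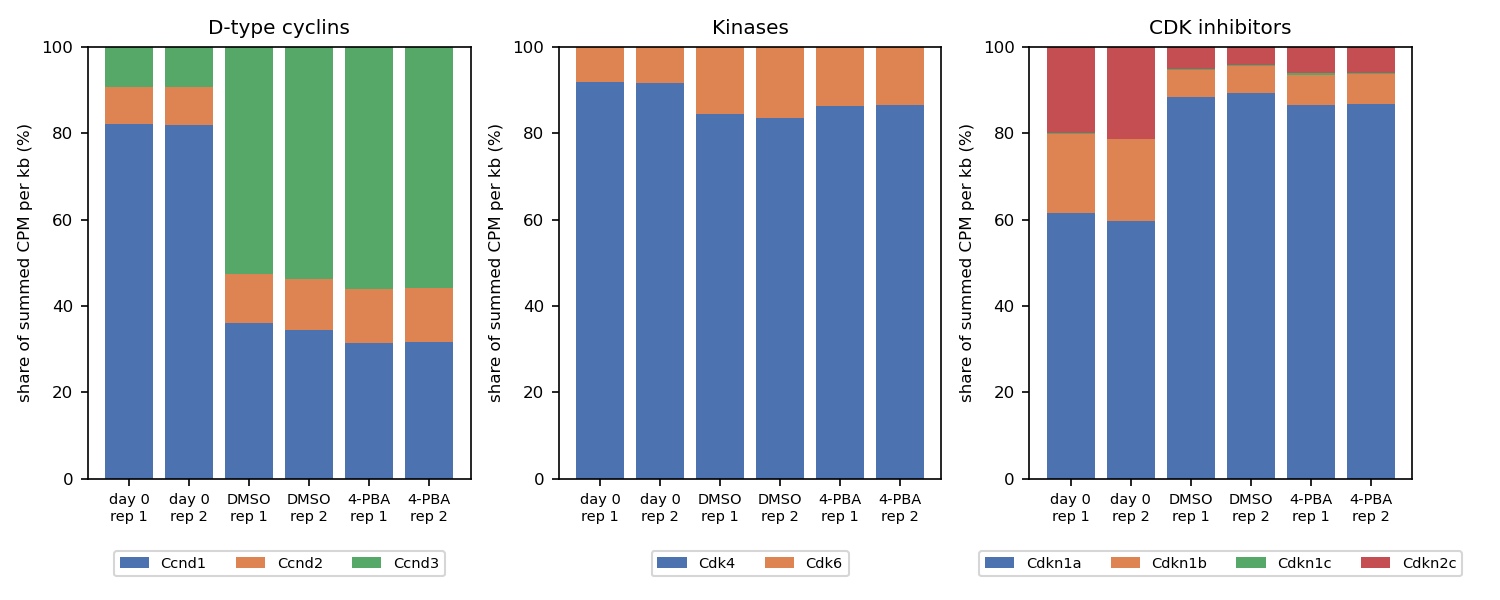
Share of each gene in the summed CPM per kb of its family (percent, stacked to 100) in each of the 6 libraries, for the D-type cyclins, the kinases and the CDK inhibitors. Ccnd3 grows from 9.31% of the cyclins at day 0 to 53.1% with DMSO and 56.0% with 4-PBA, and Cdkn1a from 60.6% of the inhibitors to 88.9% and 86.6%.

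Between the treatments at day 4 the members differed little. Of the 10 genes, 4 passed the test, against 4.90% of all tested genes: Ccnd1, Cdk6 and Cdkn1a were lower with 4-PBA (background 2.78%) and Cdkn2c was higher (background 2.13%). None changed 2-fold (0.0688% of all genes did), and 5 had an unadjusted p under 0.05 (16.7% of all genes). For 8 of the 10 genes the DMSO and 4-PBA libraries did not overlap, as for 45.5% of all genes. The median absolute log2 difference was 0.13 over the 10 genes and 0.094 over all genes. The DMSO libraries enter this comparison and the one with day 0, so the 2 are not independent.

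Ccnd1 was 18.2% lower with 4-PBA (136 ± 5.85 CPM with DMSO, 112 ± 1.16 with 4-PBA, SD, n = 2), and its rank by p was 12 of the 17433 genes. The log2 difference was -0.29 (SE 0.033, edgeR adjusted p = 4.38e-07), and it passed in all 14 alternatives, between -0.33 and -0.25. It thus lay further in the direction of the fall from day 0. Cdk6 was 1.14-fold lower (log2 difference -0.18, SE 0.034, edgeR adjusted p = 6.13e-04), and the call was lost without 4-PBA replicate 2 (-0.15, edgeR adjusted p = 0.0749).

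The differences in the 2 inhibitors that passed, Cdkn1a and Cdkn2c, went against their change from day 0, while Cdkn1c, which had risen from day 0, was higher on average with 4-PBA but not past the threshold. Cdkn1a was 10.5% lower with 4-PBA, at 682 ± 14.6 CPM against 762 ± 49.2 CPM with DMSO (SD, n = 2). Its log2 difference was -0.16 (SE 0.036, edgeR adjusted p = 0.00962), and it moved with the DMSO library left out, to -0.23 (replicate 1 omitted) or -0.092 (replicate 2 omitted). Without 4-PBA replicate 1 it did not pass (-0.14, edgeR adjusted p = 0.163). Cdkn2c was 20.5% higher with 4-PBA (log2 difference 0.27, SE 0.058, edgeR adjusted p = 0.00365). It was 0.18 without DMSO replicate 2 (edgeR adjusted p = 0.0719), 0.36 without DMSO replicate 1, and missed the threshold without either 4-PBA library (edgeR adjusted p = 0.0608 and 0.0530).

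The other 6 genes did not pass. Ccnd2 (log2 difference -0.016, SE 0.037), Ccnd3 (-0.053, SE 0.029) and Rb1 (-0.064, SE 0.043) were slightly lower on average, and Cdk4 (0.092, SE 0.036), Cdkn1b (0.039, SE 0.043) and Cdkn1c (0.45, SE 0.29) slightly higher. Their edgeR adjusted p-values lay between 0.162 for Cdk4 and 0.897 for Ccnd2. For Cdkn1c the standard error allowed a wide range, because its counts were low. Leaving out DMSO replicate 1 brought Cdk4 (0.16, edgeR adjusted p = 1.01e-04) and Rb1 (-0.14, edgeR adjusted p = 0.0214) past the threshold, and leaving out DMSO replicate 2 put Rb1 at 0.021.

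**Figure D4:**
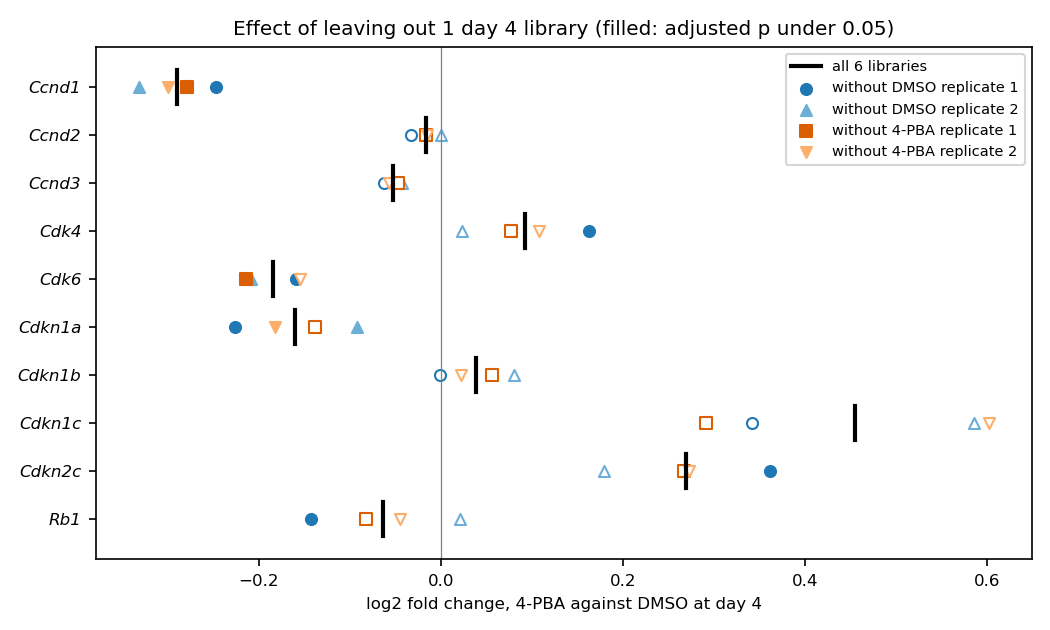
Log2 difference between 4-PBA and DMSO at day 4 for the 10 genes with all 6 libraries (black bars) and without each of the 4 day 4 libraries in turn (symbols, filled where the edgeR adjusted p was under 0.05). Ccnd1 stays between -0.33 and -0.25 and filled throughout, whereas Cdk4, Cdkn1a, Cdkn2c and Rb1 shift with the DMSO library that is left out.

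Genes whose pattern over the 6 libraries came nearest to each member were found by Euclidean distance between centred log2 CPM profiles, among 10680 genes with a mean of at least 5 CPM. The same measure gives 2.65 for the distance of the Ccnd1 profile from a flat line. Nearest to Ccnd1 were Id2 (distance 0.14), which encodes an inhibitor of MyoD-type factors, the predicted gene Gm12602 (0.14) and the inositol transporter gene Slc5a3 (0.20). Id2 went from 42.7 CPM to 10.3 CPM with DMSO and 8.10 CPM with 4-PBA, with a log2 difference between treatments of -0.34 (SE 0.086, edgeR adjusted p = 0.0125). Because Id2 was picked for its likeness to Ccnd1 in these same libraries, this difference is not a separate result.

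Ccnd3 was followed most closely by Pbxip1 (distance 0.063), Agap1 (0.073) and Tanc2 (0.075), against 1.82 for its own profile. Its nearest member was Rb1, at 0.18. The nearest of all genes to Rb1 were Fbxo32 (0.091), the gene of the muscle ubiquitin ligase atrogin-1, Plcb4 (0.095) and Fgf2 (0.10). Cdkn1a had Pdlim3 (0.069), which encodes a Z-disc protein, Ptprd (0.11) and Gadd45a (0.11) beside it, against 2.22 for its own profile. For Cdk4 they were Hlx (0.052), Grk6 (0.059) and Foxs1 (0.072), and for Cdkn2c they were Mboat1 (0.090), Stard4 (0.10) and Ccdc61 (0.10).

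Ccnd2, Cdk6 and Cdkn1b have flat profiles (0.56, 0.19 and 0.16 in the same measure), so a small distance says less for them. Ccnd2 had Etf1 (0.030), Rps18 (0.034) and Zc3h4 (0.042) nearest, and the table also lists the pseudogene Rps18-ps6 with 9636 to 16572 counts, so that how reads were divided between it and Rps18 is uncertain. Cdk6 had Enc1 (0.059), Dusp10 (0.060) and 4933407K13Rik (0.068), and Cdkn1b had Oaz1 (0.032), Gcc2 (0.036) and Chmp4b (0.043). Nothing came close to Cdkn1c, whose nearest genes Igfbp4, Gm49212 and Fst were at 1.05, 1.19 and 1.22, against 3.64 for its own profile.

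The remaining INK4 genes set Cdkn2c in context. Cdkn2d, which encodes p19, stood at 27.6 ± 0.465 CPM at day 0, 13.3 ± 1.37 CPM with DMSO and 16.0 ± 0.692 CPM with 4-PBA (SD, n = 2). It fell with DMSO (log2 change -1.06, SE 0.076, edgeR adjusted p = 1.18e-14) and was higher with 4-PBA (0.27, SE 0.078, edgeR adjusted p = 0.0335), a call that 8 of 14 alternatives lost. Cdkn2a had 2 counts and 1 count in a pair of libraries and 0 in the other 4. Cdkn2b had 0 counts in all 6 libraries, which allows at most 0.0404 to 0.0617 CPM by library, for counting error only.

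Upstream in the pathway, genes that regulate cyclins and inhibitors moved in both directions with DMSO (7 of 14 higher and 6 lower, median log2 change 0.14 against 0.023 over all genes). Here and for the lists below, counts of higher and lower genes are of those that passed the test, unless given by sign. Over all genes 33.8% were higher and 32.6% lower with DMSO. Between treatments 4.90% of all genes passed, 2.13% as higher and 2.78% as lower. Myog, the myogenic factor that marks commitment to fusion, rose from 7.90 ± 0.0661 to 287 ± 14.2 CPM (log2 change 5.19, SE 0.046, edgeR adjusted p = 3.18e-41), and was at 288 CPM with 4-PBA. Fosl1, an AP-1 subunit, fell from 185 ± 4.34 to 25.8 ± 3.73 CPM (log2 change -2.85, SE 0.086, edgeR adjusted p = 5.67e-09). Between treatments 2 of 14 passed, both lower with 4-PBA. Fosl1 was at 19.2 CPM (log2 difference -0.43, SE 0.095, edgeR adjusted p = 0.0474), a call lost in 4 of 14 alternatives. Myc, a growth factor response gene, was at 88.1 CPM at day 0, 63.0 with DMSO and 50.2 with 4-PBA (log2 difference -0.33, SE 0.059, edgeR adjusted p = 0.00295).

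The p53 pathway, to which Cdkn1a also belongs, was mixed over differentiation, with 9 of 16 genes higher and 6 lower with DMSO (median 0.38). Gadd45a, a stress gene, rose from 37.2 ± 0.674 to 149 ± 15.7 CPM (log2 change 2.01, SE 0.065, edgeR adjusted p = 1.09e-10) and Eda2r from 28.9 ± 0.939 to 103 ± 7.05 CPM (1.83, SE 0.048, edgeR adjusted p = 4.83e-26). By sign alone, 11 of the 16 were lower with 4-PBA than with DMSO and 5 higher (median -0.090 against 0.0021 over all genes). Of these, 4 passed as lower (2.78% over all genes) and none as higher. They were Mdm2, which encodes the ligase that degrades p53 (log2 difference -0.18, edgeR adjusted p = 7.47e-04), Eda2r (-0.21, edgeR adjusted p = 0.00295), Plk2 (-0.16, edgeR adjusted p = 0.0115) and Sesn2. Without DMSO replicate 2 the list had 2 lower and 1 higher, and without 4-PBA replicate 2 it had 2 lower. The median was -0.042 with DMSO replicate 2 omitted and -0.053 with 4-PBA replicate 1 omitted. Plk2 lost its call in 3 of 14 alternatives and was -0.087 without 4-PBA replicate 2 (edgeR adjusted p = 0.395), Eda2r lost it in 2 (to -0.14 without DMSO replicate 2), and Mdm2 passed in all 14. Trp53 itself was at 119 CPM in both day 4 groups, from 169 CPM at day 0.

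The list around the degradation of D-type cyclins and p27 holds 9 genes of ubiquitin ligases and other factors that promote it and 1, Usp2, that opposes it. Of these 10, 5 were higher and 2 lower with DMSO (median 0.069). Usp2, a deubiquitinase of cyclin D1, rose from 2.39 ± 0.172 to 14.04 ± 1.41 CPM (log2 change 2.55, SE 0.11, edgeR adjusted p = 2.55e-20), and Cks1b, a cofactor for p27 destruction, fell from 100.1 ± 2.05 to 30.4 ± 2.67 CPM (-1.72, SE 0.052, edgeR adjusted p = 9.54e-25). Between treatments 2 of 10 passed (4.90% over all genes). Ddb1, an adaptor of the ligase that acts on D-type cyclins, was lower with 4-PBA (log2 difference -0.13, SE 0.028, edgeR adjusted p = 0.00282). The call was lost in 2 of 14 alternatives, those without 4-PBA replicate 1 or 2 (edgeR adjusted p up to 0.186). Skp2, the F-box protein for p27, was higher (0.21, SE 0.061, edgeR adjusted p = 0.0375), a call kept in 5 of 14 alternatives. Genes of the CDK-activating kinase and of kinase folding had 2 of 5 higher and 2 lower with DMSO, near the shares over all genes, Hsp90ab1 (-0.47) and Cdc37 (-0.33) being the lower ones. None of the 5 passed between treatments by edgeR, DESeq2 or limma-voom, and 0 had an unadjusted edgeR p under 0.05.

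Of the list of other pocket proteins and E2F factors, which act beside and downstream of Rb1, 9 of 12 were lower and 3 higher with DMSO (median -0.52). Rbl1, which encodes the pocket protein p107, fell from 76.5 ± 1.03 to 25.3 ± 1.40 CPM (log2 change -1.60, SE 0.052, edgeR adjusted p = 1.92e-24), opposite to Rb1. E2f7, a repressor of the family, fell from 66.1 ± 0.203 to 25.0 ± 4.28 CPM (-1.41, SE 0.087, edgeR adjusted p = 4.99e-08). Rbl2, which encodes the remaining pocket protein p130 and was named after its values were seen, rose like Rb1, from 38.3 ± 0.837 to 48.9 ± 0.922 CPM (0.35, SE 0.050, edgeR adjusted p = 1.25e-07). Rbl1 was the 1 gene of 12 that passed between treatments (4.90% over all genes), at 29.1 CPM with 4-PBA (log2 difference 0.20, SE 0.055, edgeR adjusted p = 0.0213). It missed the threshold without DMSO replicate 2 and without either 4-PBA library.

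The 20 E2F-driven replication genes all fell with DMSO (median log2 change -1.77), led by Cdc6, which loads the replicative helicase (-2.61, SE 0.080, edgeR adjusted p = 3.02e-24) and the thymidine kinase gene Tk1 (-2.37, SE 0.059, edgeR adjusted p = 6.39e-18). With 4-PBA they stood somewhat less low: by sign 20 of 20 were higher than with DMSO (median 0.19 against 0.0021 over all genes). Of these, 8 passed, against 2.13% passing as higher over all genes. The signs compare group means and do not hold library by library. For Mcm3, Cdc6, Cdt1 and Cdc45, DMSO replicate 1 stood above both 4-PBA libraries, and for the remaining genes of the list it stood below both. Mcm7, a helicase subunit, was at 180 CPM at day 0, 55.02 with DMSO and 66.7 with 4-PBA (log2 difference 0.28, SE 0.040, edgeR adjusted p = 1.92e-05). Pcna (0.18, SE 0.036, edgeR adjusted p = 0.00117) and Prim1 (0.25, SE 0.055, edgeR adjusted p = 0.00368) followed. The count rests on single libraries: with DMSO replicate 1 left out it was 16, and with DMSO replicate 2 left out it was 4. Leaving out 4-PBA replicate 1 gave 5 and leaving out 4-PBA replicate 2 gave 3. The median moved to 0.27 when DMSO replicate 1 was omitted and to 0.10 when DMSO replicate 2 was. Mcm7 and Pcna passed in all 14 alternatives and Prim1 in 13.

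The list of later cyclins, their kinases and the Cdc25 phosphatases was lower with DMSO in 10 of 10 genes (median -1.84). By sign 9 of 10 were higher with 4-PBA than with DMSO (median 0.22), and 5 passed as higher (2.13% over all genes). Here too the signs compare group means: for Cdc25c, which was higher by sign, DMSO replicate 1 stood above both 4-PBA libraries. Ccne2 fell from 49.0 ± 1.62 to 9.22 ± 0.187 CPM (log2 change -2.41, SE 0.070, edgeR adjusted p = 5.09e-26) and Ccnb1 from 171 ± 0.186 to 41.7 ± 5.86 CPM (-2.04, SE 0.083, edgeR adjusted p = 1.73e-07). Between treatments Ccnb2 (0.27, edgeR adjusted p = 0.0101), Cdc25a (0.26, edgeR adjusted p = 0.0195) and Ccne1 (0.28, edgeR adjusted p = 0.0316) led. Of 14 alternatives, 3 lost the call of Ccnb2, 3 that of Cdc25a and 8 that of Ccne1, and Ccnb2 lay between 0.15 (DMSO replicate 2 omitted) and 0.40 (DMSO replicate 1 omitted). The edgeR count was 9 with DMSO replicate 1 left out and 0 with DMSO replicate 2 left out. It was 0 and 1 when 4-PBA replicate 1 or 2 was omitted, and 3 when either day 0 library was. The list's median was 0.31 or 0.11 when DMSO replicate 1 or 2 was omitted. The MuvB and DREAM genes hold cell cycle genes silent or switch them on. With DMSO 7 of 7 were lower by sign (median -1.26) and 5 passed. Mybl2 (-2.42, SE 0.066) and Foxm1 (-1.78, SE 0.061) fell the most. None of the 7 passed between treatments by edgeR, DESeq2 or limma-voom. By edgeR 2 had an unadjusted p under 0.05, and 3 passed as higher with DMSO replicate 1 left out.

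The list of imprinted neighbours of Cdkn1c holds 8 genes, of which 7 were tested. With DMSO 4 were higher and 1 lower (median 0.77). H19, a non-coding RNA, rose from 276 ± 2.45 to 4081 ± 288 CPM (log2 change 3.89, SE 0.040, edgeR adjusted p = 2.57e-21), and Cd81 from 226 ± 0.574 to 386 ± 6.49 CPM (0.77, SE 0.030, edgeR adjusted p = 2.86e-22). None of the 7 passed between treatments by edgeR (1 at an unadjusted p under 0.05) or DESeq2, and 1 passed as lower by limma-voom. H19 was at 4100.1 CPM with 4-PBA.

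**Figure D5:**
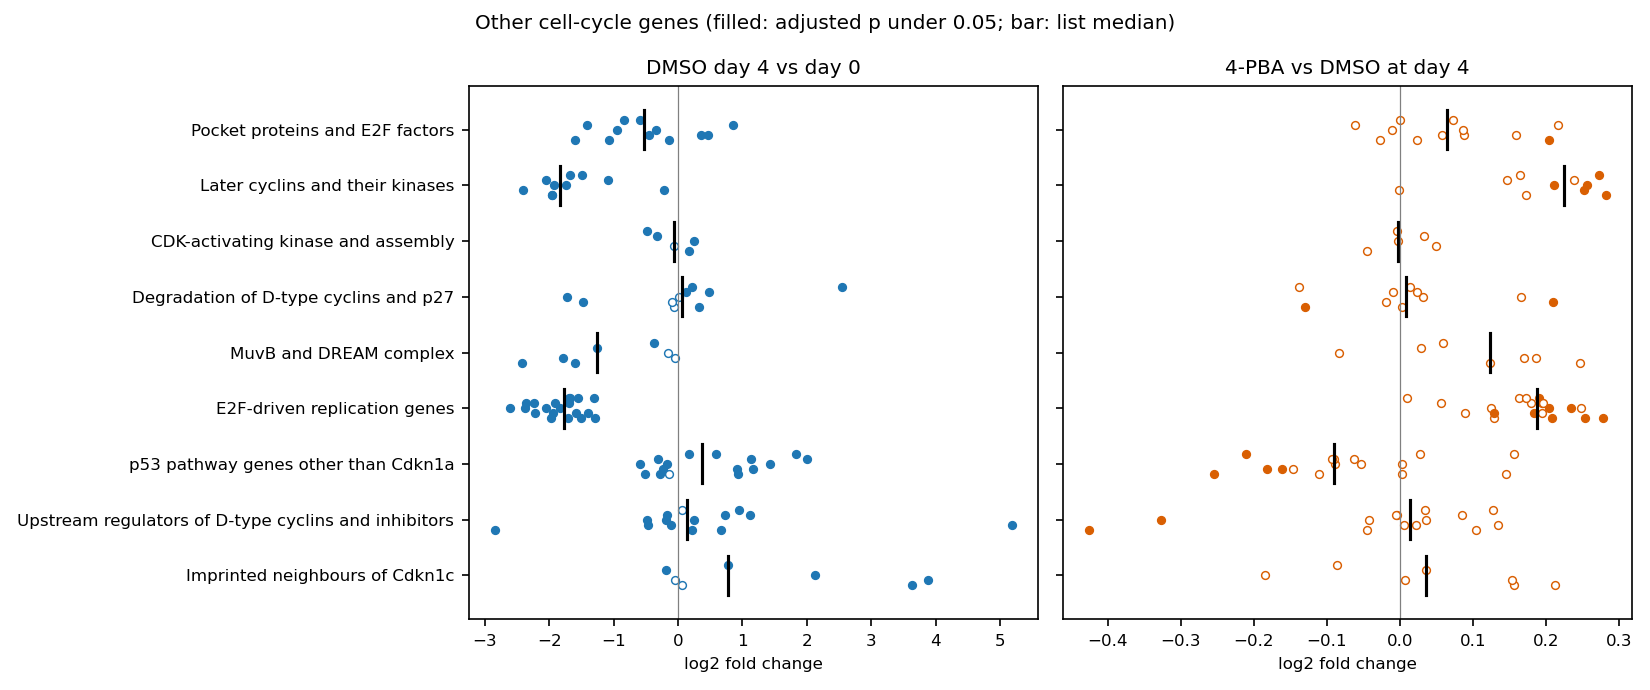
Log2 fold change of each tested gene in 9 lists around the 10 genes, with DMSO against day 0 on the left and 4-PBA against DMSO on the right, on different scales; filled points passed an edgeR adjusted p under 0.05 and black bars are list medians. Replication genes and the list of later cyclins, their kinases and Cdc25 phosphatases lie left of 0 in the first panel (medians -1.77 and -1.84). In the second they lie mostly right of 0 (medians 0.19 and 0.22).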

How the data were processed

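Per the labels' protocols, DNase-treated total RNA (100 ng) was made into directional libraries with a NEBNext Ultra II kit. The deposited values are raw counts per gene symbol, with 1 column per library and no pooling. The submitters' processing notes name the build GRCm39. The aligner, counting tool, annotation and strand setting are not given in the sources used here. No other column was present.

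Counts were analysed in R 4.3.3 with edgeR 4.0.16: filterByExpr (17433 genes kept), TMM, estimateDisp, and a robust glmQLFit of all 6 libraries (3 residual degrees of freedom), tested by quasi-likelihood F with p-values adjusted by Benjamini-Hochberg across the 17433 genes. The common biological coefficient of variation was 3.74%. With 2 libraries against 2, relabelling libraries cannot give a p under 0.05, so p-values depend on the variance that edgeR pools over genes. Standard errors are the absolute log2 fold change over the root of F. Distances used a prior count of 2. All libraries carry the same batch label. Exon lengths and overlaps came from GENCODE M21 and promoters from RefSeq, both GRCm38.p6, from which no other coordinates were taken. Same-numbered replicates did not deviate together (correlations across genes -0.028, -0.0031 and -0.012).

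The 10 genes, the gene lists and the naming rule were chosen with earlier results of these data known. Named besides the 10 genes were, per list, the 3 smallest adjusted p-values between treatments, the 2 largest called changes with DMSO (at least 5 CPM, no overlap), all other INK4 genes and 3 nearest patterns per gene; Sesn2, Trp53, Rbl2 and single levels were added after their values were seen. The code was tested on simulated counts. When these were drawn with gene-wise dispersions, the share of false calls was somewhat above the nominal 0.05. Adjusted p-values near 0.05 should therefore be read with care. Alternatives were scaling by DESeq2's size factors or by library size alone, no filter, a filter of 10 counts and 1 CPM, DESeq2 1.42.0, limma-voom (limma 3.58.1), the 4 compared libraries only, a replicate block, a 2-fold minimum, each library left out, and other lengths. Figures used matplotlib 3.10.9 in Python 3.11.15.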

Additional observations from a re-analysis of the deposited data

How the results depend on the processing

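Of the 30 log2 changes of the 10 genes (3 comparisons each), 19 kept their direction and their side of the threshold in all 14 alternatives, 7 lost a call in at least 1 of them, 2 gained one and 3 changed sign. The sign changes were all among uncalled differences between treatments: Ccnd2 was 0.00036 and Rb1 0.021 without DMSO replicate 2, and Cdkn1b was -0.00086 without DMSO replicate 1. Over all left-out libraries these 3 ranged from -0.032 to 0.00036, from -0.14 to 0.021 and from -0.00086 to 0.081. The cause was not tested. Requiring a 2-fold change left 5, 5 and 0 of the 10 genes called in the comparisons of DMSO with day 0, 4-PBA with day 0 and 4-PBA with DMSO. Leaving out single libraries gave 9 to 10, 8 to 10 and 2 to 6 called genes, and the 2 came from leaving out either 4-PBA library, which puts a single library in that group and assumes that it varies like the others. The replicate block left 10, 10 and 4 of the 10 genes called and 768 instead of 855 of all genes between treatments, and it is no pairing, since the labels share only a number. Over all genes, calls between treatments were 341 without 4-PBA replicate 1 and 295 without 4-PBA replicate 2. With the longest transcript as length, the share of Ccnd3 was 15.4%, 66.2% and 68.6% at day 0, with DMSO and with 4-PBA, and that of Cdkn1a 71.5%, 93.0% and 91.4%. With CPM and no length, Ccnd3 had 14.9%, 62.9% and 64.8%, and Cdkn1a with 4-PBA 86.4%. Of 34 results on other named genes, 23 were the same in all alternatives, 11 lost a call and 0 changed sign. Another scaling moved the median of all genes by less than 0.1, and scaling to library size alone put 51.5% of the calls between treatments on the higher side, against 43.4%. Low counts limited Cdkn1c, Cdkn2a and Cdkn2b.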
